A study of Mus musculus with 9 samples.

Results

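Heat shock and chaperone genes are described here by 10 members chosen by name: Hspa1a, Hspa1b, Hsph1, Dnajb1, Hspa8, Hsp90aa1, Hsp90ab1, Hspa5, Hspa9 and Hspd1. All 10 are among the 48663 entries of the deposited count table, and all 10 passed the filter on low counts. RNA was measured in 9 libraries of T cells that recognise a viral peptide, sorted from the spleens of mice 30 days after they were given lymphocytic choriomeningitis virus (LCMV), strain Armstrong. CD4 control cells bound a class II (I-Ab) tetramer of the viral GP66 peptide and came from Ox40-Cre- mice. CD4 ThpokAD cells bound the same tetramer and came from Ox40-Cre+ Thpokfl/fl mice, in which a Cre active in cells that have expressed the activation receptor Ox40 acts on the floxed gene of Thpok, a transcription factor of the CD4 helper lineage. CD8 control cells bound a class I (H-2Db) tetramer of the viral GP33 peptide and came from Ox40-Cre- mice. The labels do not give the Thpok alleles of the Ox40-Cre- mice. Each group had 3 libraries. The labels give no age, sex or number of animals, and do not say that replicates came from separate animals, so the spread behind each p-value is that of these samples and may be technical.

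Chaperones bind unfolded or partly folded proteins and help them reach their active shape. The HSP70 proteins hold short hydrophobic stretches in a cycle driven by ATP, J-domain proteins such as Dnajb1 bring them substrates, and HSP110 proteins such as Hsph1 exchange their nucleotide. HSP90 proteins finish the folding of kinases and steroid receptors, HSP60 folds proteins inside mitochondria, and BiP, the product of Hspa5, does so in the endoplasmic reticulum (ER). Heat shock factor 1 (Hsf1) switches on the inducible genes through heat shock elements in their promoters, and the unfolded protein response switches on the ER genes. In T cells, activation raises the demand on folding, and the inducible genes also respond to how cells are handled.

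The promoters of Hspa1a, Hspa1b and Hspa5 are shown because the results turn on these genes, and that of Hspd1 because it holds the longest heat shock element among the 6 members with a window. Promoter windows of 300 bases from RefSeq (GRCm38.p6) were matched by symbol for 6 of the 10 members and are printed 5′ to 3′ on the gene's strand. Capitals mark a heat shock element or an ER stress element. The first was searched as at least 2 alternating GAA and TTC units with 2 bases between units, on both strands, with overlapping matches joined. The second was searched on both strands as CCAAT, any 9 bases and CCACG. Hspa1a (chr17:34972107-34972406, minus strand) and Hspa1b (chr17:34959189-34959488, minus strand) are neighbours, Hspa5 lies at chr2:34771840-34772139 (plus strand), and the Hspd1 window shown is chr1:55087883-55088182 (minus strand).
Hspa1a promoter: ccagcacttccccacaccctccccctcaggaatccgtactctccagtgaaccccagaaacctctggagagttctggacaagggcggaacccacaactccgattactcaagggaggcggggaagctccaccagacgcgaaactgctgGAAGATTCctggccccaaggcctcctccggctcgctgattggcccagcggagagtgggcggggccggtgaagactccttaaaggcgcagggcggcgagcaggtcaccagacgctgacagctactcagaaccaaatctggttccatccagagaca
Hspa1b promoter: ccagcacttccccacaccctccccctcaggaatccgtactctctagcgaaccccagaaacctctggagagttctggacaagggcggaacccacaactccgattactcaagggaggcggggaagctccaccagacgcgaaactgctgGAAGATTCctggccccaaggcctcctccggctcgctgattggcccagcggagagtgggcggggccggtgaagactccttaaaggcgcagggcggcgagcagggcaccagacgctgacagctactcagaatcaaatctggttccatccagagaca
Hspa5 promoter: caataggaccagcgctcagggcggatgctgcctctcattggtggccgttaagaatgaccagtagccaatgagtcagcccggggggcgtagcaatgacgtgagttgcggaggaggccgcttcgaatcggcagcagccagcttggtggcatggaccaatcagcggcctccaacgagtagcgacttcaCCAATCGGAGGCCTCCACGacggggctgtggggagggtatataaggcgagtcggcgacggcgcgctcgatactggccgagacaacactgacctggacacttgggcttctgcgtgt
Hspd1 promoter: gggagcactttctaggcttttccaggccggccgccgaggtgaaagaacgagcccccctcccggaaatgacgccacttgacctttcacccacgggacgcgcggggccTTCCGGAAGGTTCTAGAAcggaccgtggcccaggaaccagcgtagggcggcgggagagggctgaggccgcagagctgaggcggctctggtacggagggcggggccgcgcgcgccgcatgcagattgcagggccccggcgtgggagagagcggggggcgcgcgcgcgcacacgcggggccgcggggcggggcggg
The Hspa1a and Hspa1b windows were identical at 296 of 300 bases. The 4 differences, counted from 1 at the 5′ end with the Hspa1a base first, were C44T, T47C, T249G and C276T. None of these lies in the heat shock element in capitals. No heat shock element was found in the other Hspd1 window (chr1:55088194-55088493), in the Hspa5 window or in either Dnajb1 window. A 2-unit element was found in 15.1% of all 32851 RefSeq promoter windows. An element of at least 3 alternating units, present in the Hspd1 window shown and in both of the overlapping Hsph1 windows, was found in 0.603% of them. The ER stress element was found in 0.119%. These are matches of letters and not measured binding sites.

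Total counts per library were 16664474 to 38981516, the highest in CD8 control replicate 3. Levels are CPM, the count of a gene scaled to a common library size, with TMM scaling, and tests are edgeR's quasi-likelihood test fitted over 15738 genes and all 9 libraries, with Benjamini-Hochberg adjustment and a threshold of 0.05. The targeted gene Zbtb7b, which encodes Thpok, was at 38.5 to 48.9 CPM in CD4 control, 0.698 to 0.875 CPM in CD4 ThpokAD and 18.8 to 24.0 CPM in CD8 control, lowest in all libraries labelled ThpokAD. T cell markers were at 5675 to 7371 CPM in all groups (7 of 7 detected). Summed B cell markers stayed at or below 56.1 CPM and myeloid markers were at 149 to 250.3 CPM in CD4 control, 226 to 297 CPM in CD4 ThpokAD and 70.9 to 298 CPM in CD8 control. Of 6 myeloid markers 2, Cd14 and Csf1r, were called higher in CD4 ThpokAD than in CD8 control (edgeR adjusted p = 0.0442 and 0.0455), and 1 of 5 B cell markers, Cd79b, was called higher in CD8 control than in CD4 control (edgeR adjusted p = 0.0288). NK cell markers, some of which CD8 T cells also express, summed to at most 14.8 CPM in CD4 control, 54.5 to 98.1 CPM in CD4 ThpokAD and 115 to 134 CPM in CD8 control, and the part of these markers in the results below was not tested.

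The 10 genes together held 8150 to 8871 CPM in CD4 control, 6919 to 9327 in CD4 ThpokAD and 5077 to 6177 in CD8 control. The CD8 control libraries thus lay below all 6 CD4 libraries, while the libraries of both CD4 groups overlapped. The sum is weighted to abundant genes. Hsp90ab1 averaged 3012 CPM in CD4 control and 2121 CPM in CD8 control, and Hspa5 2136 and 738 CPM. Singly, 8 of the 10 had a log2 fold change below 0 in CD8 control against CD4 control and 2 above. Per kilobase of merged exons, Hsp90ab1 was the most abundant member in each group and Hspa1a the least. In CD4 control, Hsp90ab1 stood at 1004 ± 78.7 CPM per kilobase (SD, n = 3), Hspa5 at 505 ± 21.2 and Hspa8 at 324 ± 11.6. The other members lay between 23.9 and 100.4. In CD8 control, Hspa8 at 331 ± 82.8 ranked above Hspa5 at 174 ± 12.8, and Hspa1a stood at 3.87 ± 2.42. In CD4 control each gene from the fourth to the eighth place overlapped the next in its libraries, so that the order of these genes is within the spread. In CD4 ThpokAD, Hspa5 and Hspa8 overlapped as well (405 ± 29.3 and 380.2 ± 59.8 CPM per kilobase).

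**Figure D1:**
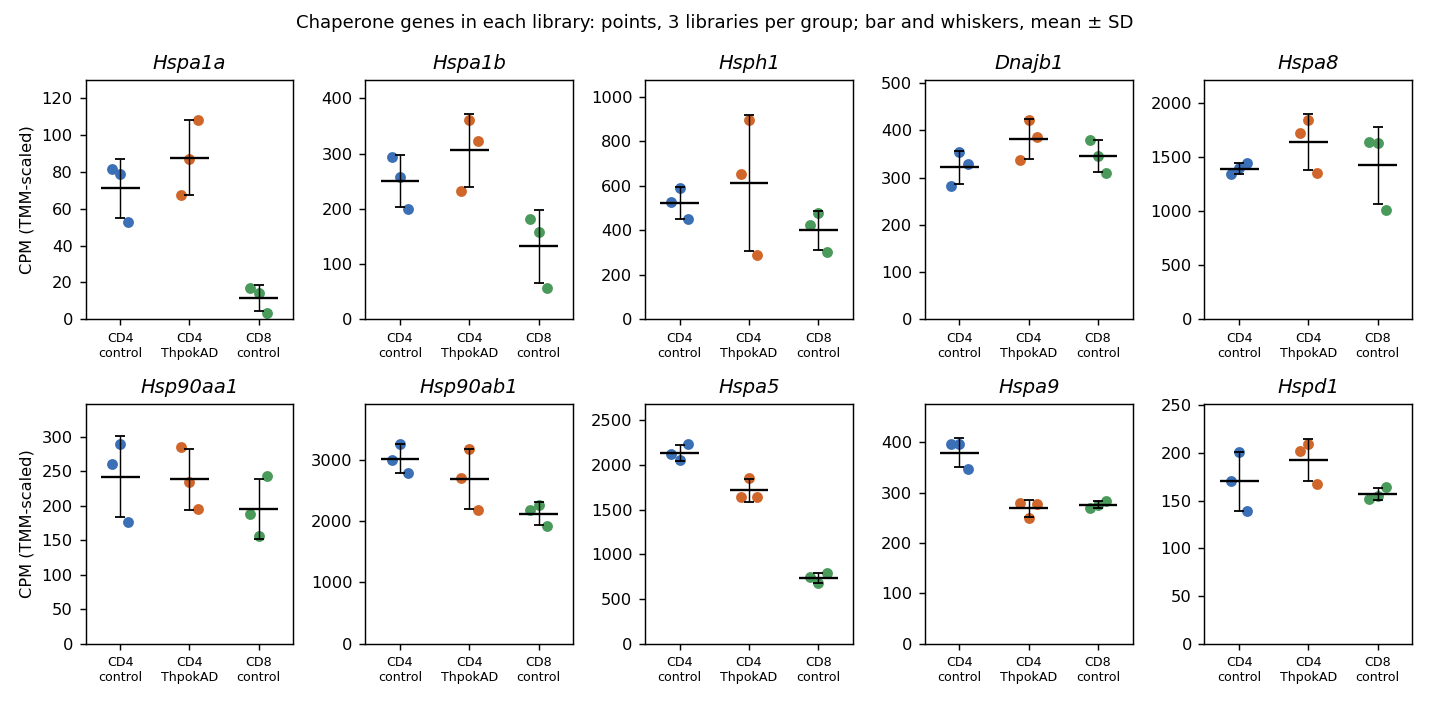
CPM of the 10 chaperone genes in each library, with a separate linear axis from 0 for each gene. Points are the 3 libraries per group and bars with whiskers the mean ± SD. The Hspa1a and Hspa5 points of CD8 control lie below all CD4 points, and the Hspa9 points of CD4 control lie above all others.

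Setting CD8 control against CD4 control compares virus-specific cells of both lineages. Lineage, peptide, tetramer and sort go together there and cannot be told apart. In bulk RNA, fewer cells with a transcript and less of it per cell cannot be told apart either. Of the 10 chaperone genes, 4 were called lower in CD8 control, against 6.55% of all tested genes (11.7% in either direction), and none was called higher, against 5.13% (0 also at an unadjusted p under 0.05 and by DESeq2). The 4 were Hspa1a, Hspa5, Hsp90ab1 and Hspa9. Over all 10 the median log2 fold change was -0.42, beside 0.01 over all tested genes. In 5 of the 10 genes all CD8 control libraries lay below all CD4 control libraries, against 16.6% of all tested genes (33.9% without overlap in either direction). The members and the gene lists below were chosen with earlier results of these data known, so counts beside these shares are a description only.

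Hspa1a, a stress-inducible cytosolic HSP70, stood at 81.4, 78.8 and 52.7 CPM in the CD4 control libraries and at 17.0, 14.1 and 3.35 CPM in the CD8 control libraries. The groups did not overlap, and the deepest library, CD8 control replicate 3, was the lowest. Its level was 6.21-fold lower in CD8 control (log2 fold change -2.63, SE 0.52, edgeR adjusted p = 0.0124). The call was kept in all 15 alternative fits, with adjusted p of 7.14e-07 to 0.0415. Without CD8 control replicate 3 the log2 fold change was -2.19. Hspa1a has a single exon on chromosome 17 (34969190 to 34972156, minus strand, GRCm38).

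Hspa1b, its neighbour (34956436 to 34959238), encodes a nearly identical protein. It stood at 294, 257 and 200.04 CPM in CD4 control, against 182, 158 and 56.8 CPM in CD8 control. The groups did not overlap, but edgeR did not call the difference (log2 fold change -0.92, SE 0.38, adjusted p = 0.162). By DESeq2 it was called, with an adjusted p of 0.0437. Without CD8 control replicate 3, the lowest library, the log2 fold change was -0.57, which is the smallest over the fits that left out a library.

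The ratio of Hspa1a to Hspa1b counts was 0.263 to 0.307 in CD4 control, 0.240 to 0.335 in CD4 ThpokAD and 0.0591 to 0.0934 in CD8 control. All 3 CD8 control libraries lay below all 6 CD4 libraries. An exact permutation test of the mean log2 ratio gave a two-sided p = 0.10 for CD8 control against either CD4 group (n = 3 per group), which is the smallest that this design allows. The difference was -1.83 on the log2 scale against CD4 control. For CD4 ThpokAD against CD4 control it was 0.02 (exact two-sided p = 1). The transcripts of both genes share much sequence: of the 126-base windows of the Hspa1a transcript, the length of a read, 42.0% also occur in Hspa1b. The libraries were read as pairs, and the share of pairs in which neither read tells the genes apart was not computed. The sources used here do not say how the counting treated reads that match both genes. The exons of Hspa1a also share 564 bases with Gm20481 on the opposite strand, which had no count in any library. The library kits named in the labels do not mark strand.

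**Figure D2:**
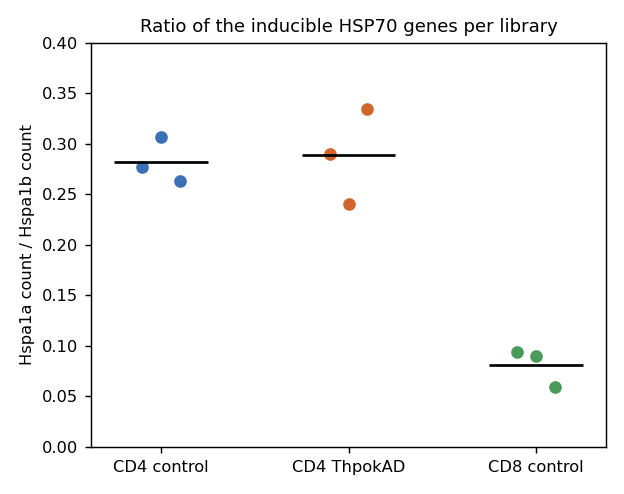
Ratio of Hspa1a to Hspa1b counts in each library, on a linear axis from 0. Points are libraries and bars group means. The CD8 control points (0.0591 to 0.0934) lie below all CD4 points (0.240 to 0.335).

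Neither partner of inducible HSP70 among the members was called. Dnajb1, the J-domain cochaperone, stood at 283, 354 and 328 CPM in CD4 control, against 380, 346 and 311 CPM in CD8 control. These ranges overlapped, and the log2 fold change was 0.10 with an unadjusted 95% interval of -0.20 to 0.40 (edgeR adjusted p = 0.693). Hsph1, the HSP110 exchange factor, stood at 525, 592 and 451 CPM in CD4 control and 422, 477 and 305 CPM in CD8 control. Its log2 fold change was -0.38, with an interval of -1.17 to 0.41 (edgeR adjusted p = 0.557). Neither gene shares a 126-base window with another annotated gene.

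Of the other cytosolic chaperones, Hsp90ab1 was called lower and Hspa8 and Hsp90aa1 were not. Hspa8, which encodes HSC70, stood at 1342, 1393 and 1441 CPM in CD4 control, against 1634, 1623 and 1011 CPM in CD8 control. CD8 control replicate 3 alone lay below the CD4 control range and the other CD8 libraries above it. The log2 fold change was 0.03 (interval -0.39 to 0.46, edgeR adjusted p = 0.946). Hsp90ab1, the constitutive HSP90 beta, stood at 2999, 3255 and 2783 CPM in CD4 control, against 2185, 2262 and 1915 CPM in CD8 control, without overlap. It was 1.42-fold lower (log2 fold change -0.51, SE 0.14, edgeR adjusted p = 0.0469). That call stood close to the threshold. It was lost without any 1 of the 6 libraries compared or CD4 ThpokAD replicate 1, and over the fits that left out a library the adjusted p was 0.0247 to 0.152. Hsp90aa1, the inducible HSP90 alpha, stood at 261, 290 and 176 CPM in CD4 control and 188, 156 and 243 CPM in CD8 control. The groups overlapped (log2 fold change -0.31, interval -0.84 to 0.22, edgeR adjusted p = 0.46).

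Some of these transcripts share 126-base windows with processed copies or other annotated genes, so that reads may match both. How many reads did so was not measured. Of the 126-base windows of Hspa8, 52.5% occur in another annotated gene, as do 35.1% of those of Hsp90aa1 and 19.0% of those of Hspd1. For Hspa8, the long noncoding RNA Gm26825 shares 47.5% of the windows, the pseudogene Gm15459 47.0% and the pseudogene Gm8355 22.5%. In CD4 control, CD4 ThpokAD and CD8 control, Gm26825 averaged 0.643, 0.722 and 0.801 CPM and Gm15459 0.0956, 0.208 and 0.143 CPM. Gm8355 averaged 151, 168 and 139 CPM, beside 1392, 1635 and 1423 CPM for Hspa8. The Hsp90aa1 pseudogene Gm12346 held 111, 112 and 87.6 CPM on average in CD4 control, CD4 ThpokAD and CD8 control. The corresponding means of Hsp90aa1 itself were 242, 239 and 196 CPM. Hspd1-ps3 held 78.3, 89.2 and 71.4 CPM beside 170, 193 and 157 CPM for Hspd1. Levels of these members are therefore uncertain. Hsp90ab1, Hspa5 and Hspa9 share no such window.

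Hspa5 encodes BiP, the HSP70 of the ER (chromosome 2, 34771970 to 34777547, plus strand). It stood at 2121, 2055 and 2232 CPM in CD4 control, against 749, 678 and 785 CPM in CD8 control. The groups did not overlap, and the coefficients of variation were 4.19% and 7.35%. It was 2.90-fold lower in CD8 control (log2 fold change -1.53, SE 0.09, edgeR adjusted p = 2.31e-05), and the log2 fold change stayed between -1.59 and -1.47 in all 15 alternative fits.

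Most other ER chaperones were not called. Hsp90b1, the ER form of HSP90, stood at 293, 216 and 276 CPM in CD4 control, against 228, 247 and 509 CPM in CD8 control (edgeR adjusted p = 0.541). Its highest library was CD8 control replicate 3, without which its log2 fold change was -0.15 instead of 0.33. Summed plasma cell markers, from cells rich in ER chaperones, were 0, 288 and 103 CPM in the CD8 control libraries in replicate order and 8.95 to 57.2 CPM in CD4 control. Their part in the levels of ER genes was not tested. In the list of 14 ER chaperones and folding enzymes, which does not hold Hspa5, 2 genes were called lower, 1 was called higher and 11 were not called. The median log2 fold change was 0.11. Of all tested genes, 6.55% were called lower and 5.13% higher. In the list, the lower genes were the oxidases Ero1l and Ero1lb, and both calls were lost in most alternative fits (edgeR adjusted p up to 0.133). The higher gene was Txndc5, a disulfide isomerase, at 265 ± 7.72 against 92.4 ± 6.68 CPM (edgeR adjusted p = 2e-04). The calreticulin gene Calr was at 142, 166 and 581 CPM in CD8 control, again highest in replicate 3, against 222 to 265 CPM in CD4 control (log2 fold change 0.32, edgeR adjusted p = 0.731). Without that library it was called lower, with a log2 fold change of -0.63 (edgeR adjusted p = 0.0198). Pdia4 was at 239 against 215 CPM on average and Canx at 393 against 434 CPM, and neither was called. Hyou1, the large HSP110-like protein of the ER, was at 47.3 ± 13.8 against 81.2 ± 2.72 CPM and missed the threshold (edgeR adjusted p = 0.0551, range over the alternatives 0.00895 to 0.139).

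Among regulators of the unfolded protein response, which controls Hspa5, 4 of 13 were called lower in CD8 control, 9 were not called and none was called higher (1 at an unadjusted p under 0.05, 0 by DESeq2). Their median log2 fold change was -0.30. Of all tested genes, 6.55% were called lower and 5.13% higher. Xbp1, a transcription factor of this response, was at 136 ± 10.9 against 360 ± 4.93 CPM (edgeR adjusted p = 0.000232). Herpud1, a part of ER-associated degradation, was 2.10-fold lower and Eif2ak3, the kinase PERK, 2.33-fold lower. Ppp1r15a, the phosphatase subunit that restores translation, was 5.13-fold lower. Dnajb9, an ER J-domain partner of BiP from the DnaJ list, was at 16.4 ± 4.58 against 93.3 ± 8.62 CPM (edgeR adjusted p = 0.000204). Atf4 and Ddit3, the transcription factors downstream of PERK, were at 97.2 against 123 CPM and 19.1 against 11.95 CPM and were not called.

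**Figure D3:**
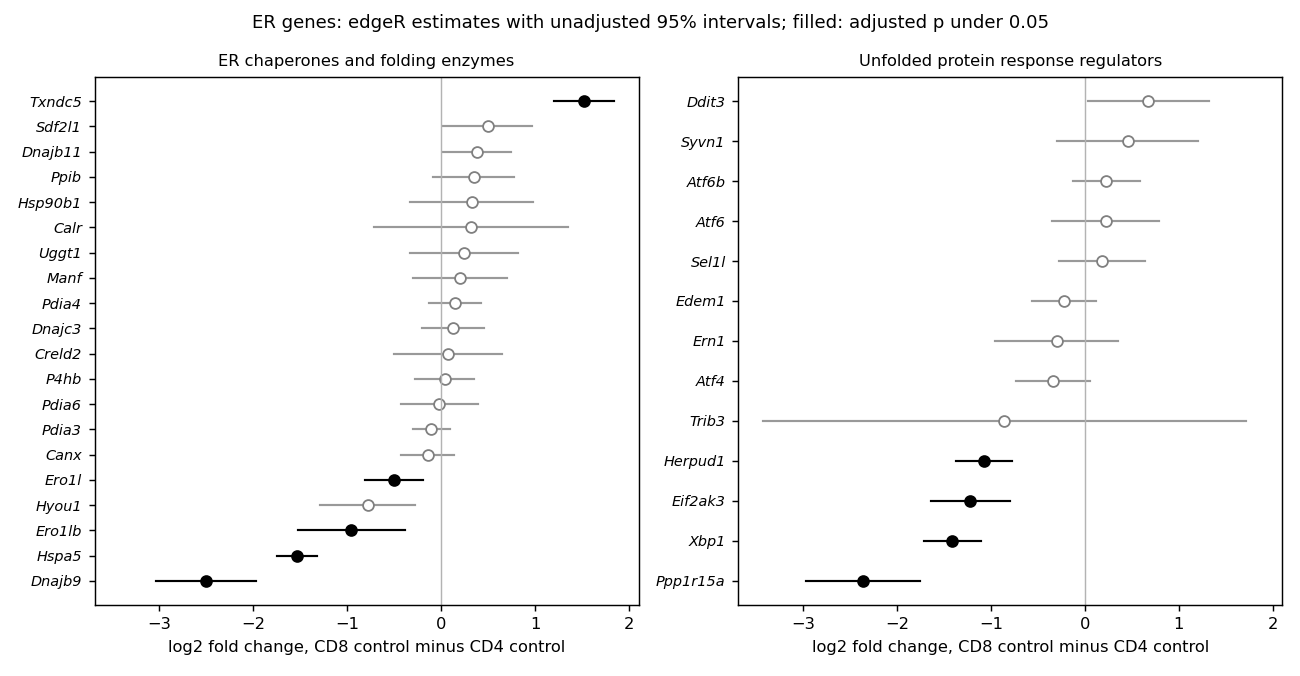
Log2 fold changes of CD8 control minus CD4 control for ER chaperones and folding enzymes (left) and unfolded protein response regulators (right), with unadjusted 95% intervals. Filled points have an adjusted p under 0.05. Hspa5 lies at -1.53 and Dnajb9 at -2.50, and the intervals of Hsp90b1, Calr and the 3 plotted Pdia genes include 0.

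Of the mitochondrial members Hspa9 was called lower and Hspd1 was not. Hspa9, the mitochondrial HSP70 (chromosome 18, 34937414 to 34954357), stood at 396, 397 and 346 CPM in CD4 control, against 269, 276 and 283 CPM in CD8 control, without overlap. It was 1.38-fold lower (log2 fold change -0.46, SE 0.10, edgeR adjusted p = 0.0197). The call was lost when either of CD4 control replicates 1 and 2 or either of CD8 control replicates 1 and 2 was left out, and the adjusted p of the fits that left out a library was 0.027 to 0.0811. The adjusted p was 0.0509 when the replicate number was fitted as a block, and 0.0526 without the filter on low counts. Hspd1, the HSP60 chaperonin, stood at 171, 201 and 139 CPM in CD4 control and 152, 155 and 164 CPM in CD8 control, all within the CD4 control range (log2 fold change -0.12, interval -0.46 to 0.23, edgeR adjusted p = 0.702). Hspe1, its cofactor HSP10, is transcribed from the opposite strand of the same locus and was at 66.1 ± 1.64 against 56.0 ± 10.99 CPM (edgeR adjusted p = 0.427).

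In the HSP70 and HSP110 family, 5 of 12 tested genes were called lower in CD8 control and none higher (0 at an unadjusted p under 0.05 and 0 by DESeq2). Beside Hspa1a, Hspa5 and Hspa9 these were Hspa4, an HSP110 relative at 188 ± 15.1 against 299 ± 42.0 CPM (edgeR adjusted p = 0.0123), and Hspa2, a testis-enriched HSP70 at 0.808 ± 0.758 against 11.2 ± 3.30 CPM (edgeR adjusted p = 0.0436, lost in 11 of 15 alternatives, at up to 0.118, among them the fits without CD8 control replicate 1 or 3 or any 1 CD4 library). The family had 2 lower calls without CD4 control replicate 1, 3 without CD4 control replicate 2 or 3, and 4 without any other library. The call of Hspa4 was lost without CD4 control replicate 1 or 3 (adjusted p up to 0.0517). In the DnaJ family 3 of 37 were called higher and 4 lower (1 to 3 and 3 to 4 when 1 library was left out, the fewest higher without CD4 control replicate 1 or 2 or CD8 control replicate 1), beside 5.13% and 6.55% of all tested genes. Dnajc15, a mitochondrial J-domain protein, was 3.25-fold higher in CD8 control (345 ± 110.1 against 106 ± 15.6 CPM, edgeR adjusted p = 0.0022). Among HSP90 and its cochaperones 4 of 20 were called higher and 2 lower. The higher count fell to 0 or 1 without any 1 of the 6 libraries compared, and the lower count to 1 without any of them but CD8 control replicate 3 and also without CD4 ThpokAD replicate 1. The cochaperone genes Fkbp4, Ppid and Sugt1 lost their higher calls in 9, 5 and 4 of the 15 alternatives. In the TRiC chaperonin and prefoldin list 2 of 14 were called higher (Cct6a and Pfdn6) and 1 lower (Cct2). Without any 1 CD4 control library no gene of that list was called in either direction. The higher count was 0 also without CD8 control replicate 3 and 1 without CD8 control replicate 2 or CD4 ThpokAD replicate 1, and the lower call was kept among the leave-one-out fits only without CD8 control replicate 3. Bag3, an exchange factor induced by heat shock, was 2.19-fold lower (21.3 ± 2.98 against 46.6 ± 1.76 CPM, edgeR adjusted p = 0.00525). None of the 4 tested heat shock factors was called in any of the 3 comparisons by edgeR or by DESeq2 (at an unadjusted p under 0.05, 1 was lower in CD4 ThpokAD against CD4 control and none in the other comparisons). Hsf1 was at 98.5 ± 6.44 CPM in CD4 control and 88.9 ± 2.74 CPM in CD8 control. The 3 tested small heat shock genes included Hspb1, which stayed under 1 CPM on average in every group.

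Many stress and activation genes outside the chaperone families were also called lower in CD8 control. Of all tested genes, 6.55% were called lower and 5.13% higher. Of 9 tested genes induced by heat shock and other stress, 5 (among them Zfand2a, Rrad, Gadd45b and Atf3, some of which activation also induces) were called lower in CD8 control and none higher (1 at an unadjusted p under 0.05, 0 by DESeq2). Zfand2a, which is induced by heat shock and arsenite, was at 37.2 ± 11.8 against 173 ± 25.1 CPM. Of 19 immediate early genes, which TCR signals and tissue dissociation both switch on, 16 were called lower in CD8 control and 1 higher, with a median of -3.35. Their summed level was 12528 to 14774 CPM in CD4 control and 1465 to 2119 CPM in CD8 control. Fos was at 24.1 ± 10.4 against 298 ± 27.1 CPM and Nr4a1 at 4.57 ± 2.72 against 2303 ± 166 CPM. Whether the levels of these genes have a part in those of Hspa1a and Hspa5 was not tested.

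Setting CD4 ThpokAD against CD4 control puts CD4 cells with Cre and floxed Thpok beside CD4 cells without Cre. Cre was present in the ThpokAD mice alone, so effects of Cre itself and of deleting Thpok cannot be told apart. Of the 10 chaperone genes 1, Hspa9, was called lower, against 0.928% of all tested genes, and none was called higher, against 1.81% (0 at an unadjusted p under 0.05, and 0 by DESeq2). The median log2 fold change of the 10 was 0.21, beside 0.00 over all tested genes. In 2 of the 10 all ThpokAD libraries lay below all CD4 control libraries, against 12.5% of all tested genes, and in none above, against 13.2% (25.7% without overlap in either direction; 2.74% were called in either direction).

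Hspa9 stood at 279, 249 and 277 CPM in CD4 ThpokAD, below the 346 to 397 CPM of CD4 control. It was 1.41-fold lower (log2 fold change -0.50, SE 0.10, edgeR adjusted p = 0.0363). The call was not firm: it was lost without any 1 of the 6 CD4 libraries and without CD8 control replicate 1 or 2, with adjusted p of 0.0331 to 0.144 over the fits that left out a library, and 0.0969 with the replicate number as a block. Hspa5 stood at 1640.3, 1855 and 1642 CPM in CD4 ThpokAD, also below the 2055 to 2232 CPM of CD4 control. The log2 fold change, -0.32 with an SE of 0.09, had an adjusted p of 0.126 by edgeR and of 0.00659 by DESeq2, which alone called it.

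Hspa1a stood at 67.6, 86.8 and 108 CPM in CD4 ThpokAD and Hspa1b at 233, 362 and 323 CPM. Both overlapped CD4 control, with log2 fold changes of 0.30 (interval -0.80 to 1.41, edgeR adjusted p = 0.849) and 0.29 (interval -0.56 to 1.14, adjusted p = 0.806). Hsph1 varied most within the group, at 651, 897 and 291 CPM, a spread of 3.08-fold that held the whole CD4 control range. Within the group, CD4 ThpokAD replicate 3 was the lowest library for 5 of the 10 members, Hsph1, Hspa8, Hsp90ab1, Hsp90aa1 and Hspd1, at 291, 1347, 2181, 196 and 168 CPM, and the highest for Hspa1a. Dnajb1 stood at 338, 423 and 385 CPM, with a log2 fold change of 0.25 (interval -0.05 to 0.55, edgeR adjusted p = 0.432). For Hspa8 the log2 fold change was 0.23, for Hspd1 0.18, for Hsp90ab1 -0.17 and for Hsp90aa1 -0.02, none of them called (edgeR adjusted p of 0.646 to 0.982).

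Few other chaperone genes were called in CD4 ThpokAD, as were few of all tested genes (1.81% higher and 0.928% lower). In the DnaJ family 1 of 37 was called higher, and in the ER list 1 of 14, with none lower in either. Dnajc9, a J-domain protein that chaperones histones, was 193 ± 8.65 against 121 ± 6.87 CPM (edgeR adjusted p = 0.0133, up to 0.0661 when a library was left out, and lost for CD4 control replicates 1 and 3 and ThpokAD replicates 2 and 3). Txndc5 rose to 212 ± 35.3 from 92.4 ± 6.68 CPM (edgeR adjusted p = 0.00291). No unfolded protein response regulator was called by edgeR, with 1 higher and 2 lower at an unadjusted p under 0.05 and 2 lower by DESeq2. Xbp1 was at 256 ± 41.2 against 360 ± 4.93 CPM (edgeR adjusted p = 0.0972). Of the 9 stress-induced genes 0 were called by edgeR and 0 by DESeq2, with 1 higher and 2 lower at an unadjusted p under 0.05. Immediate early genes summed to 9064 to 11820 CPM in CD4 ThpokAD, below the 12528 to 14774 CPM of CD4 control without overlap. Of the 19, 15 had a log2 fold change below 0 (median -0.53). In 11, all ThpokAD libraries lay below all CD4 control libraries, against 12.5% of all tested genes. None of the 19 was called by the main edgeR fit (1 higher and 5 lower at an unadjusted p under 0.05, 3 lower by DESeq2). However, Fos was called lower by edgeR fitted on only the 6 libraries compared. Of the 19 genes, 3 were called lower without CD8 control replicate 3 and 1 without CD8 control replicate 2. Whether these genes have a part in the levels of the chaperone genes was not tested here either.

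CD4 ThpokAD was also set against CD8 control, in a comparison that shares libraries with both others. Of the 10 genes, 2 were called higher in CD4 ThpokAD, against 4.63% of all tested genes (6.54% in either direction), and none lower, against 1.91% (0 at an unadjusted p under 0.05, 0 by DESeq2). They were Hspa1a, 7.66-fold higher (log2 fold change 2.94, SE 0.53, edgeR adjusted p = 0.0125), and Hspa5, 2.32-fold higher (log2 fold change 1.22, SE 0.09, adjusted p = 0.000114). Both calls were kept in all 15 alternative fits. Hspa1b, 2.32-fold higher, had an adjusted p of 0.105 by edgeR and of 0.00748 by DESeq2. In 4 of the 10 genes, Hspa1a, Hspa1b, Hspa5 and Hspd1, all ThpokAD libraries lay above all CD8 control libraries, against 14.6% of all tested genes (27.1% without overlap in either direction). Hspa9, at 269 ± 16.6 CPM beside 276 ± 7.15 CPM in CD8 control, had a log2 fold change of -0.04 with an interval of -0.27 to 0.19 (edgeR adjusted p = 0.892).

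**Figure D4:**
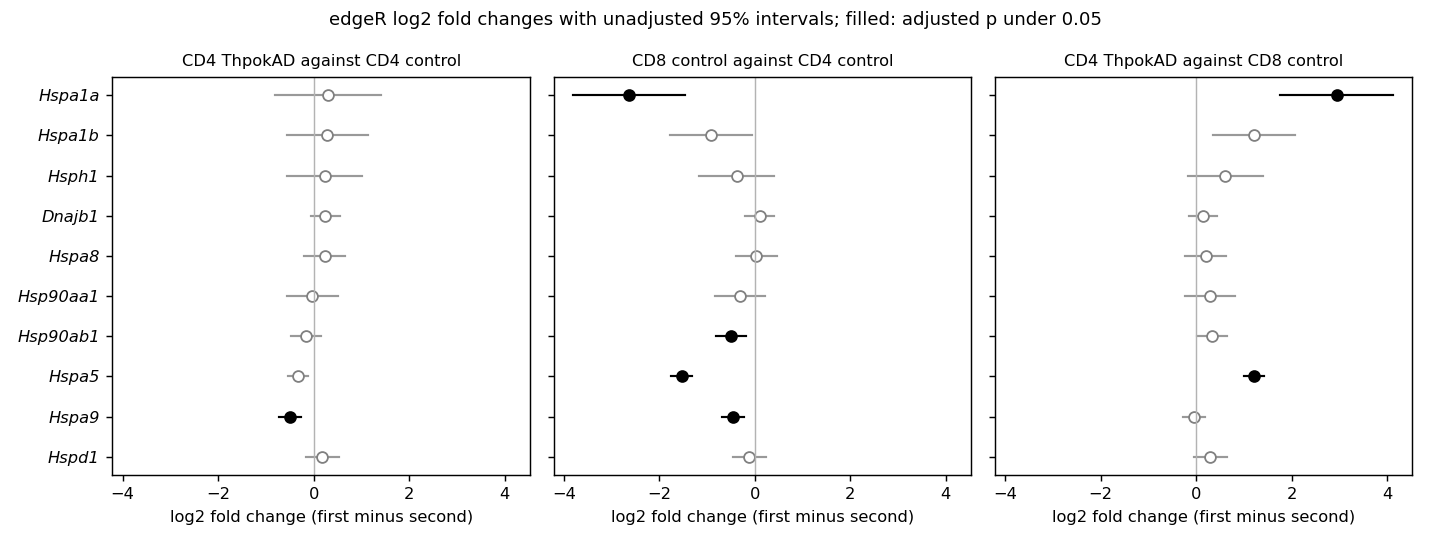
Log2 fold changes of the 10 chaperone genes in the 3 comparisons, with unadjusted 95% intervals and filled points for an adjusted p under 0.05. Hspa1a and Hspa5 lie away from 0 in both comparisons with CD8 control, at -2.63 and -1.53 and at 2.94 and 1.22, while in CD4 ThpokAD against CD4 control their adjusted p missed the threshold.

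Of the other lists, 4 of 13 unfolded protein response regulators, 7 of 9 stress targets and 15 of 19 immediate early genes were called higher in CD4 ThpokAD than in CD8 control, and none of the 3 lists had a gene called lower. At an unadjusted p under 0.05, 1, 0 and 2 of their genes were lower, and DESeq2 called 0, 0 and 2 lower. Of all tested genes, edgeR called 4.63% higher and 1.91% lower. Some chaperone lists were mixed. Of 20 HSP90 and cochaperone genes 1 was called higher and 2 lower, and of 37 DnaJ genes 1 higher and 1 lower. The lower genes were Cdc37l1 and Trap1, each lost in 13 of 15 alternatives, and Dnajc15 (log2 fold change -1.26, edgeR adjusted p = 0.0155). The HSP70, exchange factor, TRiC and ER lists had 2 of 12, 1 of 11, 1 of 14 and 1 of 14 higher and none lower. Xbp1 was at 256 ± 41.2 against 136 ± 10.9 CPM and Dnajb9 at 61.8 ± 10.4 against 16.4 ± 4.58 CPM. Cct2, a subunit of the TRiC chaperonin, was at 270.1 against 186 CPM on average (edgeR adjusted p = 0.0104).

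The spread between replicates differed among the members. In CD4 control the coefficient of variation was 3.58% for Hspa8 and 24.4% for Hsp90aa1, with a median of 12.3% beside 11.7% over 4089 genes at or above the mean level of the lowest member. In CD8 control it reached 62.6% for Hspa1a and 50.2% for Hspa1b and was 2.59% for Hspa9. In CD4 ThpokAD it reached 49.7% for Hsph1.

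Across the 9 libraries, the genes whose log2 CPM was most like that of Hspa5 were Arid5a, Vps37b and Tmem88, with Pearson correlations of 0.996, 0.995 and 0.995. Arid5a, an RNA-binding protein, averaged 1069, 740 and 232 CPM in CD4 control, CD4 ThpokAD and CD8 control. For Hspa1a they were Med13l (0.984), Pim3 (0.982) and Rnf19b (0.974). For Hspa8 they were Ano6, Cds2 and Pitpnc1 (0.928 to 0.916) and for Hspd1 Ube2e1, Kndc1 and Ago4 (0.930 to 0.881). Kndc1 and Ago4 were near 0 in some groups (averages of 0 and 0.0161 CPM in CD8 control). These correlations are over libraries that share groups, depth and scaling and were picked as the highest of 11701 genes, so they are a description only. Hspa1a and Hspa1b correlated at 0.953 with each other, and their counts may share reads.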

How the data were processed

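RNA-seq of 9 sorted T cell samples was analysed. Per the labels' protocols, RNA was isolated with a micro column kit and amplified with low-input kits, and libraries were read as 126 bp pairs. Per the submitters' processing notes, which give no roles, the tools were STAR, HTSeq, Trimmomatic, bcl2fastq 2.17 and DESeq2 and the build mm10. Which annotation release and strand setting were used is not given in the sources used here. In the deposited table the authors gave raw counts by gene symbol, without normalization. A second deposited table, the same counts scaled, was not used.

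Genes were kept by filterByExpr (minimum count 10, minimum total 15) and tested with edgeR 4.0.16 (TMM, glmQLFit, glmQLFTest, 1 coefficient per group, all 9 libraries) in R 4.3.3, with Benjamini-Hochberg adjustment over 15738 genes. Standard errors were derived from the log2 fold change and F. Levels are CPM as mean ± SD. Coordinates and exon lengths are from GENCODE M21. Alternatives were RLE size factors, DESeq2 1.42.0 (Wald test), no filter, only the 6 libraries compared, the replicate block and leaving out each library; bias-adjusted deviances were added after seeing the data. On simulated counts for CD8 control against CD4 control (15023 genes), 25% of 24 genes changed 2-fold and 96.8% of 31 genes changed 4-fold were called at 50 CPM or more. At all levels it was 6% of 100 and 47.4% of 95 genes. Far fewer genes were changed there than the 1839 called in the data, so these shares need not hold for the data. Replicates differed by more than sampling noise. The chi-square per degree of freedom was 134 and 146 for the pairs with CD8 control replicate 3, the deepest library, and 32.3 to 48.6 for all others. The Pearson correlations of log2 CPM were 0.932 and 0.909 for those pairs, within the 0.892 to 0.932 of all pairs. That library also had the lowest share of mitochondrial counts, 1.08% beside 1.78% to 3.80%.

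The members and gene lists were chosen with earlier results of these data known. Named genes are all 10 members, up to 4 called genes with the smallest adjusted p per list and comparison, the lists' best-known genes and, for 4 members, the 3 most correlated genes. Hspa2, Hyou1, Canx, Calr and Pdia4 were added from the lists after their values were seen. A gene of the stress list is not reported here by name.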

Additional observations from a re-analysis of the deposited data

How the results depend on the processing

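Of the results on the 10 genes, the higher Hspa1a and Hspa5 of the CD4 groups kept direction and call in all 15 alternatives. Hspa9 and Hsp90ab1 kept direction in the comparisons where they were called, but their calls were often lost. The Hspa9 call was lost in 10 of 15 alternatives in CD4 ThpokAD against CD4 control. In CD8 control against CD4 control it was lost in 6, and the Hsp90ab1 call in 8. In CD4 ThpokAD against CD4 control, CD8 control against CD4 control and CD4 ThpokAD against CD8 control, 431, 1839 and 1030 genes were called. DESeq2 called 1290, 2977 and 2161. With the replicate number as a block edgeR called 281, 1461 and 684, and bias-adjusted deviances called 1638 in the third. Leaving out 1 library gave 181 to 477, 1058 to 1667 and 589 to 788 genes. Called members were 1, 4 and 2. In the first comparison they were 2 by DESeq2, 0 without the filter, 0 with the block and 0 to 1 without 1 library; in the second, 2 without the filter and 2 to 4 without 1 library. The cause of these changes was not tested. The labels share replicate numbers, but same-numbered libraries did not deviate together (correlations of -0.05 to 0.06, and not every library correlated best with its own number), so the block stands for no known pairing.

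Some values that were not called changed sign. With the block, Hspa8 was at -0.0047 in CD8 against CD4 control and Hsf2 at -0.018 in CD4 ThpokAD against CD8 control. Leaving out 1 library gave log2 ranges, in CD4 ThpokAD against CD4 control, of -0.23 to 0.28 for Dnaja1, -0.21 to 0.12 for Hsp90aa1, -1.17 to 0.15 for Hspb1, -0.16 to 0.13 for Hspe1 and -0.15 to 0.57 for Hsph1. In CD8 against CD4 control they were -0.63 to 0.66 for Calr (called lower without CD8 control replicate 3), -0.15 to 0.54 for Hsp90b1, -0.079 to 0.22 for Hspa8 and -0.24 to 0.019 for Hspd1. In CD4 ThpokAD against CD8 control they were -0.12 to 0.21 for Atf4, -0.11 to 0.33 for Ddit3, -0.050 to 0.46 for Dnaja1, -0.032 to 0.89 for Hsf2, -0.36 to 0.32 for Hsp90b1 and -0.076 to 0.011 for Hspa9. The lowest count of a member in a library was 136 (Hspa1a).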
